A study of Mus musculus with 8 samples.

Results

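The genes described here are 10 enzymes of alcohol, aldehyde and keto-steroid metabolism, chosen by name: the alcohol dehydrogenases Adh1, Adh4 and Adh5, the cytosolic aldehyde dehydrogenases Aldh1a1 and Aldh1a7, the mitochondrial aldehyde dehydrogenases Aldh1b1 and Aldh2, the folate enzyme Aldh1l1, and the aldo-keto reductases Akr1c6 and Akr1d1. They are 10 of 49826 gene names on the array design used for Lin- BM cells and 1-month hepatocytes and of 34761 on the design used for primary and 5-month hepatocytes, and 7 of them have a probe of identical sequence on both designs. All 10 passed the filter on dim probes in the comparisons within a slide, and all 7 did across slides.

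RNA levels were measured on 8 one-colour Agilent arrays, with 2 arrays for each of 4 groups. The cells before transplantation, Lin- BM cells (L3 and L4), are bone marrow cells depleted of mature blood lineages, which the methods take from 6 to 8 weeks old female mice that carry GFP under the ubiquitin C promoter. BM-derived hepatocytes were sorted as GFP+ cells from the livers of recipients 1 month (B1 and B2) or 5 months (G1 and G3) after such cells had been transplanted. The recipients were 6 to 8 weeks old male hemophilia A mice, whose F8 gene is disrupted, and their livers had been injured with acetaminophen at 500 mg/kg. Primary hepatocytes (H2 and H4) are perfused liver cells collected by low-speed centrifugation, and their strain, sex and age are not given in the sources used here. Each array holds pooled cells of 3 mice, so the p-values below measure only the spread between pools, 2 for each group. Across slides this spread is 1 estimate over all 4 groups, so arrays outside a comparison enter it. With 2 arrays a group, 0.33 is the smallest two-sided p that exact permutation allows. Some sorted cells were fusion products of donor and host cells by the study's account, and a GFP+ sort takes any donor-derived cell of the hepatocyte fraction, which limits these groups as a model.

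One slide held the arrays of Lin- BM cells and of the 1-month hepatocytes, and another slide, of another design, those of the primary and the 5-month hepatocytes. Slide, design and group cannot be told apart in any comparison across slides. Levels are given as log2 signal minus the 75th percentile of the array, either over all probes of a slide (the all-probe scale) or over the 13991 probes of identical sequence (the shared-probe scale). Levels can be compared between arrays for 1 probe, not between probes. A gene is described as called where limma's adjusted p was below 0.05 and the size of its log2 change above 0.6. Between 47.7% and 58.6% of the spots were well above background, and the 75th percentile of the signal was lowest on the 1-month arrays, at most 88.7 against 103 to 192 on the others. Of the hepatocyte markers, 7 of 7 with a probe rose from Lin- BM cells to 1-month hepatocytes, and Alb, Apoa1, Ttr, Fgb, Cps1 and Cyp2e1 were not well above background on either Lin- array. The genes not well above background there entered the test through the 1-month arrays alone, so the count is no support for their rise. Of the progenitor markers, 7 of 8 fell. In bulk samples fewer cells of a type and less RNA per cell cannot be told apart.

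In the liver, ethanol is oxidised to acetaldehyde by alcohol dehydrogenases in the cytosol, and acetaldehyde is oxidised to acetate mainly by ALDH2 in the mitochondrion, with ALDH1B1 as its closest mitochondrial relative. Some of the same enzymes act on vitamin A, since ADH1 and ADH4 oxidise retinol and ALDH1A1 makes retinoic acid from retinal, while ADH5 clears formaldehyde bound to glutathione in nearly all cells. ALDH1L1 turns formyl-tetrahydrofolate into tetrahydrofolate, AKR1C6 reduces keto groups of sex steroids, and AKR1D1 reduces the steroid ring on the way to bile acids.

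A change is that of the stretch of RNA a probe binds. The array probes on which the across-slide results rest are therefore shown, except that of Adh4. The shared probe of Adh1 and its second probe on the slide of Lin- BM cells overlap by 30 bases, which are in capitals.
Adh1 shared probe: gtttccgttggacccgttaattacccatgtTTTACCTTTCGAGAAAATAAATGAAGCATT
Adh1 second probe: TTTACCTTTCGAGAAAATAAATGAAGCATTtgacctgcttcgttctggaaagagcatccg
Aldh2 shared probe: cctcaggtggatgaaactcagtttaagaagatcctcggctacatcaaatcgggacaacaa
Of the shared probes of Aldh1b1, Akr1c6, Aldh1a1 and Aldh1a7 the first 30 of 60 bases are given.
Aldh1b1 shared probe, first bases: aaatctgatttcagcctgagttcccagtga
Akr1c6 shared probe, first bases: tgaatactaactggaggtccattttgtgcc
Aldh1a1 shared probe, first bases: gactagttgtgacttaagctctgtccctca
Aldh1a7 shared probe, first bases: ttccttgaactatgtaccatgcatgataac
In the array's own annotation (mm9) the Aldh2 probe lies at chr5:122022137-122022690 on the minus strand. That is a span of 554 bases for 60 letters, so its bases are not contiguous in the genome. The Aldh1b1 probe lies at chr4:45816960-45817019 and the Akr1c6 probe at chr13:4456428-4456487, both on the plus strand. Aldh1a1 and Aldh1a7 are neighbouring genes on chromosome 19 (GRCm38.p6, 20492583 to 20643463 and 20692953 to 20727556), but the longest run of bases that their probes share is 8. Adh1, Adh4 and Adh5 all lie on chromosome 3 in the reference, between 138277585 and 138455499. Adh1 ends at 138290698, Adh4 reaches from 138415456 to 138432683 and Adh5 starts at 138437200.

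Against Lin- BM cells, 9 of the 10 genes were called higher at 1 month and 0 lower. Of all 28538 genes tested in this within-slide comparison 28.8% were called higher, 26.5% lower and 55.3% in either direction. The median log2 change was 5.36 for the 10 genes and 0.07 for all genes. The gene that was not called is Aldh1b1. Adh4 and Akr1d1 passed the filter through the 1-month arrays alone, the group in which they were higher, so that their place in the count and in the median is no support for a rise. The plot of changes within a slide shows the 10 values.

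The alcohol dehydrogenases fell into unequal steps. Adh1 was at 9.36 and 9.16 on the 1-month arrays and at -2.09 and -2.26 on the Lin- arrays (all-probe scale). The log2 rise was 11.43 (SE 0.27, n = 2, adjusted p = 6.38e-05, limma), and that of the second probe 10.65. Adh4 was at 7.35 and 7.43 at 1 month, and at -4.23 and -5.49 in Lin- BM cells, where L4 was not well above background. Its change was 12.25 (SE 0.48, adjusted p = 0.000156). Adh5 was already well above the 75th percentile of the array in Lin- BM cells, at 5.00 and 5.06. At 1 month it was at 7.62 and 7.40, a change of 2.48 (SE 0.26, adjusted p = 0.00207). For none of the 3 genes did the groups overlap. With 2 arrays a group this has a two-sided p of 0.33 by exact permutation and is by itself no support for a difference. The share of all genes with such a separation was not counted.

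Akr1c6 rose most of the 10 genes, by 14.31 (SE 0.28, n = 2, adjusted p = 6.16e-05), from -4.14 and -3.83 in Lin- BM cells to 10.25 and 10.40 at 1 month. Only 0.126% of all genes tested had a larger rise. Akr1d1 was dim at 1 month, at -1.04 and -1.09, and not well above background on either Lin- array, at -5.66 and -6.35. The rise was at least 10.8-fold. Its adjusted p of 0.00063 (limma) was computed against Lin- signals at background level.

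Aldh1l1 went from -0.51 and -1.53 in Lin- BM cells to 7.38 and 7.43 at 1 month, a change of 8.42 (SE 0.41, n = 2, adjusted p = 0.000278). Its probe on this slide has no counterpart of identical sequence on the other, so its level cannot be followed across slides.

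The cytosolic ALDH1A genes were the members whose Lin- arrays lay farthest apart. Aldh1a1, whose enzyme contributes to the aldehyde dehydrogenase activity by which blood progenitors are enriched, was at 2.20 on L3 and 4.16 on L4, and at 8.63 and 8.99 at 1 month. Its change was 5.63 (SE 0.68, n = 2, adjusted p = 0.00308). Aldh1a7 was at 0.72 on L3 and 3.61 on L4, and at 7.25 and 7.26 at 1 month, a change of 5.09 (SE 0.96, adjusted p = 0.0106). On the shared-probe scale only 4.17% of 9226 genes had a larger gap between the Lin- arrays than the 1.81 of Aldh1a1, and 0.91% had a larger gap than the 2.74 of Aldh1a7. L4, the array with more of both, also had more summed signal of the stellate cell markers (162 against 9.47, relative to the 75th percentile, all-probe scale) and less of the neutrophil markers (115 against 628). In both Lin- samples 5 of 7 stellate markers were well above background, and Des and Lrat were not, so this signal does not identify stellate cells. The sums of the lymphocyte markers (75.3 and 153) and of the erythroid markers (35.2 and 86.0) also differed between the Lin- arrays. The part of the cell make-up of the samples in the gap was not tested. Without B1 or without B2 the call for Aldh1a7 was lost (adjusted p = 0.0509 and 0.0527).

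Of the mitochondrial genes, Aldh2 was called higher and Aldh1b1 was not. Aldh2 was at 0.59 and 1.43 in Lin- BM cells and at 4.62 and 4.09 at 1 month, a change of 3.34 (SE 0.41, n = 2, adjusted p = 0.00308). Aldh1b1 was at -1.10 and -1.20 in Lin- BM cells and at -0.47 and 0.04 at 1 month. On this all-probe scale the groups did not overlap. Before the percentile of each array was subtracted, the signals did overlap. They were 54.0 on B1 and 91.0 on B2, against 89.9 on L3 and 76.6 on L4. B1 thus lay below both Lin- arrays and B2 above both, so the separation of the groups came with the scaling. The change of 0.93 (SE 0.30, 95% interval 0.15 to 1.71) missed the threshold with an adjusted p of 0.0507 (limma). It was called under 3 of the alternative settings, with normexp background correction (0.68, adjusted p = 0.0154), with probes well above background on every array (0.93, adjusted p = 0.0345) and with the mean of a gene's probes (0.93, adjusted p = 0.0494).

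**Figure D1:**
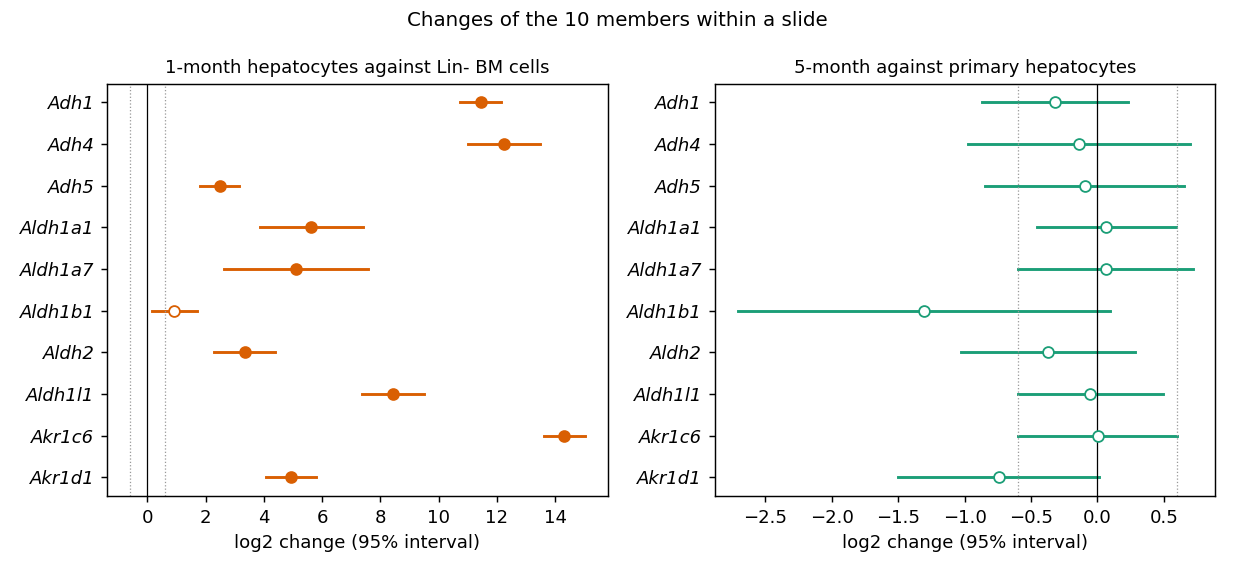
Log2 change (x axis) of the 10 genes (y axis) in 1-month hepatocytes against Lin- BM cells (left) and in 5-month against primary hepatocytes (right), with 95% intervals from limma, 2 arrays per group. Filled points were called, and dotted lines mark a change of 0.6. At 1 month 9 of 10 points are filled and Aldh1b1 is not; on the right none is filled.

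In the comparison of 5-month with primary hepatocytes, which also lies within 1 slide, 0 of the 10 genes were called. The background is low here, since 0.552% of 19934 genes were called in either direction (0.366% higher and 0.186% lower) and 14.1% had an unadjusted p under 0.05. The median log2 change was -0.12 for the 10 genes and 0.04 for all genes.

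Most of the enzymes lay close together in both groups. Akr1c6 was at 9.90 and 10.16 at 5 months and at 9.93 and 10.13 in primary hepatocytes, with a change of 0.00 (95% interval -0.60 to 0.60). Aldh1a1 was at 9.15 and 9.18 against 9.10 and 9.09, a change of 0.07 (interval -0.46 to 0.59). Aldh1l1 was at 9.59 and 9.75 against 9.70 and 9.75, a change of -0.05 (interval -0.60 to 0.49). For Akr1c6, Aldh1a1 and this probe of Aldh1l1 a change of more than about 0.6 in either direction lies outside the interval. The second Aldh1l1 probe on this slide differed from the first. It was at 1.5 and 1.44 at 5 months and at 2.10 and 2.02 in primary hepatocytes, a change of -0.59 (SE 0.21) with an unadjusted p of 0.0413 and an adjusted p of 0.317 by limma, and the interval of the first probe does not speak for it.

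The intervals of the others were wider or lay lower. Adh1 was at 9.06 and 9.24 at 5 months and at 9.45 and 9.49 in primary hepatocytes, a change of -0.32 (interval -0.87 to 0.23). Adh4 was at 6.68 and 6.82 against 7.24 and 6.54, and Adh5 at 0.53 and 0.95 against 1.04 and 0.63. For both the groups overlapped. Aldh1a7 was at 7.27 and 7.26 against 7.42 and 6.98, which overlap too. Aldh2 was at 6.49 and 6.72 at 5 months and at 6.79 and 7.16 in primary hepatocytes, a change of -0.37 (interval -1.03 to 0.28).

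Akr1d1 and Aldh1b1 had the changes of largest size. Akr1d1 was at 2.35 and 2.36 at 5 months and at 3.40 and 2.79 in primary hepatocytes, a change of -0.74 (interval -1.5 to 0.01, adjusted p = 0.359). Aldh1b1 was at 3.56 and 3.64 at 5 months, and at 5.62 on H2 and 4.19 on H4. Its change of -1.31 had an interval from -2.71 to 0.09 and an adjusted p of 0.376, and 2.2% of all genes had a larger fall. The primary arrays disagreed by more than the arrays of any other hepatocyte group did for this gene. Without H4 the change was -2.03 and was called (adjusted p = 0.0128), and without H2 it was -0.59.

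Across slides, the 7 genes with a shared probe were all called higher than in Lin- BM cells, both in primary hepatocytes (7 of 7) and at 5 months (7 of 7). In primary hepatocytes 29.3% of all 9234 genes were called higher, 38.1% lower and 67.4% in either direction, and at 5 months 29.3%, 37.7% and 67.1%. Both comparisons use the same Lin- arrays. Adh4 was not well above background on L4 and passed the filter through the hepatocyte groups alone. Its place in the 2 counts is no support for a rise. Akr1c6 was at -5.52 and -5.35 in Lin- BM cells on the shared-probe scale, at 8.22 and 8.46 in primary hepatocytes and at 8.28 and 8.49 at 5 months. Its changes were 13.77 (SE 0.23, adjusted p = 1.12e-07) and 13.82 (SE 0.23, adjusted p = 1.22e-07). The smallest change from Lin- BM cells to primary hepatocytes was that of Aldh1a7, at 4.80, and the smallest to 5 months that of Aldh1b1, at 4.55.

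The 1-month hepatocytes differed from primary hepatocytes in the mitochondrial aldehyde dehydrogenases. Of the 7 genes 2 were called lower at 1 month, Aldh1b1 and Aldh2, and 0 higher, while 5.12% of 9234 genes were called lower, 11.7% higher and 16.8% in either direction. Aldh1b1 was at -1.92 and -1.35 at 1 month and at 3.92 and 2.52 in primary hepatocytes on the shared-probe scale. Its change of -4.86 (SE 0.46, n = 2, adjusted p = 0.00301) was a level 29.0-fold lower, and 1 of the 9234 genes fell more. Aldh2 was at 3.18 and 2.70 at 1 month and at 5.09 and 5.49 in primary hepatocytes. It changed by -2.35 (SE 0.33, adjusted p = 0.00685), a level 5.11-fold lower. Both calls held when any 1 of the 8 arrays was left out, with changes from -5.56 to -4.16 for Aldh1b1 and from -2.59 to -2.11 for Aldh2.

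The other 5 genes were not called. Adh1 was at 7.92 and 7.76 at 1 month and at 7.74 and 7.82 in primary hepatocytes, a change of 0.06 (interval -0.47 to 0.59). Aldh1a1 was at 7.18 and 7.60 against 7.40 and 7.42, with a change of -0.02 (interval -1.33 to 1.30). Aldh1a7 was at 5.80 and 5.87 against 5.72 and 5.31, and its interval of -1.57 to 2.21 was the widest. The spread in this fit is shared by all 4 groups, so the Lin- arrays widen these intervals. For Aldh1a7 the SD was 1.94 in Lin- BM cells, 0.05 at 1 month and 0.28 in primary hepatocytes. For Aldh1a1 it was 1.28, 0.29 and 0.02. Adh4, at 5.91 and 6.04 against 5.54 and 4.87, changed by 0.77 (adjusted p = 0.306). Akr1c6, at 8.80 and 9.0 against 8.22 and 8.46, changed by 0.56 (adjusted p = 0.141). The values of Adh4, Akr1c6 and Aldh1a7 were higher on both 1-month arrays than on both primary arrays, whereas those of Aldh1b1 and Aldh2 were lower. With 2 arrays a group such a separation has a two-sided p of 0.33 by exact permutation. By itself it is no support for a difference.

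**Figure D2:**
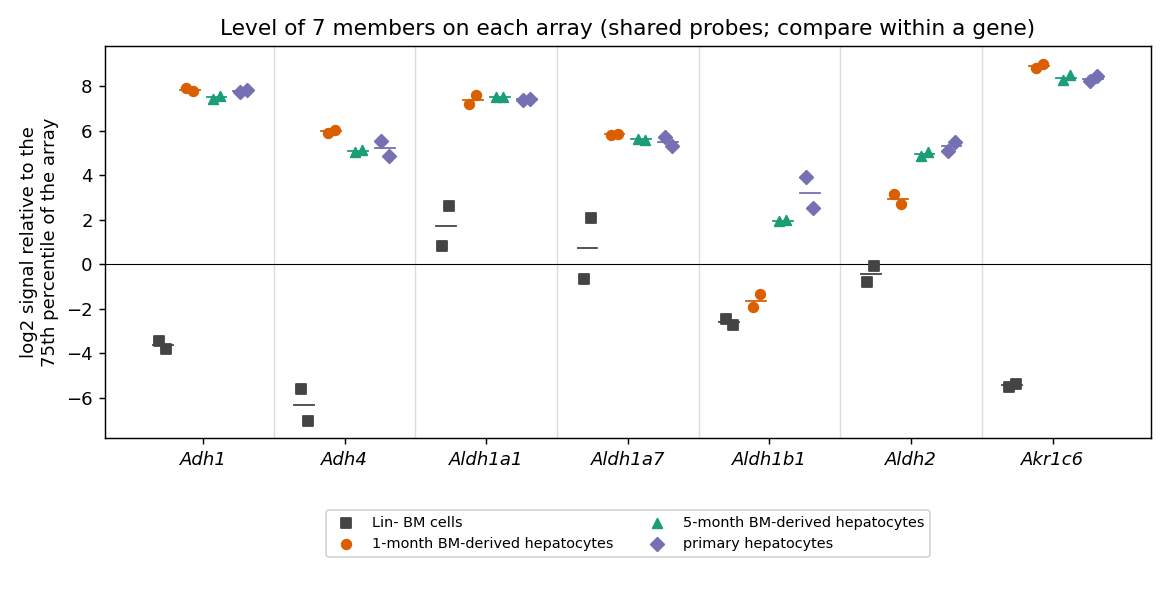
Log2 signal relative to the 75th percentile of the array (y axis, shared-probe scale) for the 7 genes with a probe on both designs (x axis). Each point is an array and each short line the mean of 2. Levels compare within a gene. The 6 hepatocyte arrays lie close together for Adh1 and Aldh1a1, while for Aldh1b1 and Aldh2 the 1-month arrays lie below the other hepatocytes.

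From 1 to 5 months the same genes were called in the other direction, in a comparison that shares the 1-month arrays with the one above. Of the 7 genes 2 were called higher at 5 months, against 5.84% of all genes higher, 11.3% lower and 17.2% in either direction. Aldh1b1 was at 1.93 and 1.97 at 5 months, a change of 3.59 (SE 0.46, n = 2, adjusted p = 0.0062) or 12.0-fold. Aldh2 was at 4.87 and 5.05, a change of 2.02 (SE 0.33, adjusted p = 0.0117) or 4.07-fold. The call of Aldh2 was lost without B2 (1.78, adjusted p = 0.0681), without G1 (2.11, adjusted p = 0.0708) and without G3 (1.93, adjusted p = 0.0739). Adh4 changed by -0.86 (adjusted p = 0.244) and Akr1c6 by -0.52 (adjusted p = 0.156). Adh1, Aldh1a1 and Aldh1a7 changed by -0.34, 0.13 and -0.22.

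The order of mean levels on the shared-probe scale was the same for Aldh1b1 and Aldh2, with primary hepatocytes highest, then 5 months, 1 month and Lin- BM cells. The neighbours 5 months and primary hepatocytes did not differ by the test for either gene, and 1 month and Lin- BM cells differed by the test for Aldh2 only. For Adh1, Aldh1a1, Aldh1a7 and Akr1c6 the means of the 3 hepatocyte groups lay within 0.57 of each other, and for Adh4 within 0.86, against 4.86 for Aldh1b1 and 2.35 for Aldh2. Over the 6 hepatocyte arrays Aldh1b1 and Aldh2 had r = 0.92, a description of 6 points that fall into 2 slides. Other pairs had r of like size, such as Aldh1b1 with Akr1c6 (-0.92), Aldh2 with Adh4 (-0.91) and Adh4 with Aldh1a7 (0.90).

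**Figure D3:**
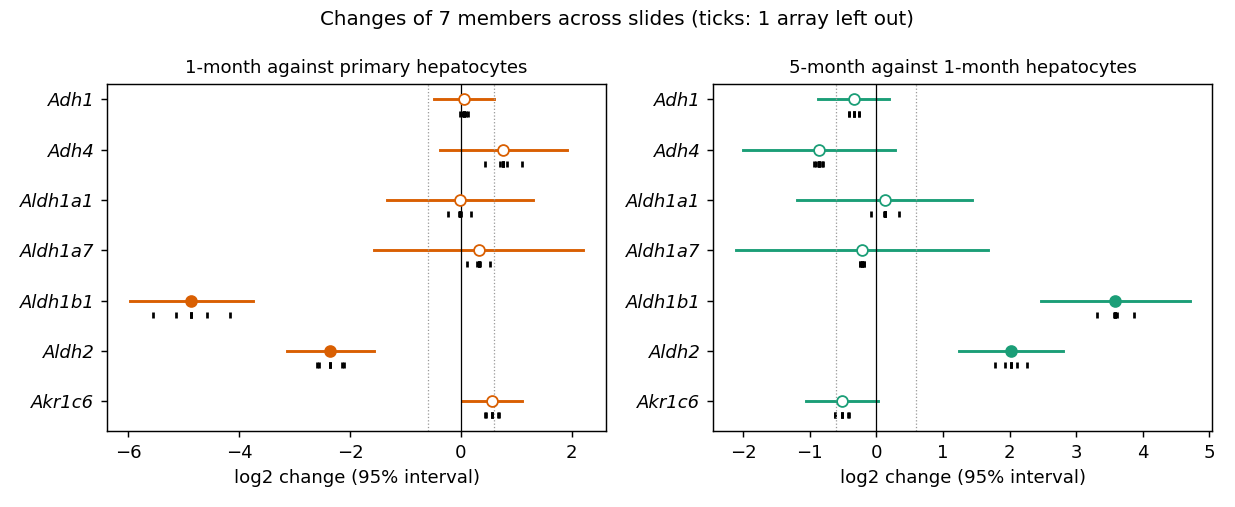
Log2 change (x axis) of 7 genes (y axis) in 1-month against primary hepatocytes (left) and in 5-month against 1-month hepatocytes (right), with 95% intervals. Filled points were called, ticks below a point are the values with 1 array left out, and dotted lines mark 0.6. Aldh1b1 and Aldh2 are filled in both panels and lie left of 0 in one and right of 0 in the other.

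Markers of periportal hepatocytes, and in part of hepatocytes in general, moved with these genes. Of 5 tested, Sds (-3.89), Cyp2f2 (-2.50) and Arg1 (-1.91) were lower at 1 month than in primary hepatocytes, and the same 3 were higher at 5 months than at 1 month (2.77, 2.52 and 1.6). Of all genes 5.12% were called lower in the first of these comparisons and 5.84% higher in the second. The summed signal of the list on the shared-probe scale was 52.7 to 104 at 1 month, 305 to 354 at 5 months and 330 to 385 in primary hepatocytes. The pericentral list had 177 to 201, 166 to 183 and 179 to 202, and 0 of its 5 genes were called between 1 month and primary hepatocytes. From 1 to 5 months 1 of its 5 genes, Cyp1a2, was called higher (1.37). General hepatocyte markers moved too, with summed signals of 922 to 947 at 1 month, 1512 to 1609 at 5 months and 1287 to 1402 in primary hepatocytes. Of 4 tested, Alb (1.04) and Apoa1 (1.02) were higher at 5 months than at 1 month, and 0 were called between 1 month and primary hepatocytes. The part of zonation, that of hepatocyte content, and that of the low overall signal of the 1-month arrays, in the levels of Aldh1b1 and Aldh2 was not tested. Kupffer cell markers did not follow the same order, with 3.18 to 13.9 at 1 month, 21.7 to 24.5 at 5 months and 4.34 to 9.71 in primary hepatocytes.

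Of the aldehyde dehydrogenases outside the 10 genes, 7 of 12 tested from Lin- BM cells to 1 month were called higher and 1 was lower, and their median log2 change was 3.60. Of all genes in this comparison 28.8% were called higher and 26.5% lower. In the lists here and below, "at least" marks a gene that neither array of the dimmer group measured well above background. From Lin- BM cells to 1 month such a gene passed the filter through the brighter group alone, so its place in a count is no support. Aldh8a1, which acts on retinal and in tryptophan breakdown, rose by 9.55 (SE 0.27, adjusted p = 7.33e-05), Aldh6a1 of valine breakdown by 5.76 and Aldh5a1 of the GABA shunt by 5.60. Aldh18a1, which makes the precursor of proline, was lower, at least 5.53-fold. Between 1 month and primary hepatocytes 0 of 8 were called, among them the mitochondrial enzymes Aldh4a1 (-0.27), Aldh5a1 (0.53) and Aldh6a1 (0.36). Of the same 8, 0 were called between 1 and 5 months, and of 10 tested 0 between 5 months and primary hepatocytes. Of all genes 16.8%, 17.2% and 0.552% were called in these comparisons, in that order.

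The other aldo-keto reductases and the steroid enzymes are the wider families of Akr1c6 and Akr1d1. Of 13 aldo-keto reductases 10 were higher at 1 month than in Lin- BM cells, among them Akr1c14 (at least 1552-fold), Akr1c20 (at least 58.1-fold) and Akr1c19 (6.90 on the log2 scale), and 2 were lower, the aldose reductase Akr1b3 (-3.10) and Akr1b10 (-3.39). Akr1b8 was higher at 1 month than in primary hepatocytes (1.74, adjusted p = 0.0116), and Akr1c20, Akr1b8 and Akr1b7 were lower at 5 months than at 1 month (-1.84, -1.56 and -1.34). Of 12 hydroxysteroid enzymes 12 were higher at 1 month than in Lin- BM cells, among them Hsd17b2, Hsd3b5 and Hsd3b2 (at least 417-fold, 288-fold and 270-fold). Hsd17b2, Hsd3b5 and Hsd3b2 passed the filter through the 1-month arrays alone. Hsd17b13, Hsd17b6 and Hsd3b3 were also not well above background on either Lin- array, so any of them that was tested passed the same way. On a Lin- array 7 to 8 of the 14 genes with a probe were well above background. The count of 12 is thus no support for a rise of the list, and 28.8% of all genes were called higher. Of 8 tested between 1 month and primary hepatocytes, 1 was lower at 1 month, Hsd17b6 (-5.21), and 1 was higher, Srd5a2 (at least 3.18-fold). In that comparison 5.12% of all genes were called lower and 11.7% higher. From 1 to 5 months 3 of 8 were higher, Hsd17b6 (4.54), Hsd17b12 (1.41) and Hsd17b2 (1.18), and 0 were lower, against 5.84% and 11.3% of all genes. Srd5a2, a steroid reductase of androgen metabolism, was the single gene of all the related lists called between 5 months and primary hepatocytes, at least 6.63-fold higher at 5 months. All 11 genes of bile acid synthesis, the pathway of Akr1d1, were higher at 1 month than in Lin- BM cells, among them Baat, Slc27a5 and Acox2 (at least 2147-fold, 12.56 on the log2 scale and at least 934-fold). Cyp7a1 and Cyp8b1, like Baat and Acox2, were not well above background on either Lin- array. They too passed the filter through the 1-month arrays alone, as did any of the 11 that was well above background on only 1 Lin- array. On a Lin- array 5 to 6 of the 11 genes were well above background, so their count is no support for a rise of the list.

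In the pathways that surround the alcohol and aldehyde dehydrogenases, 13 of 13 retinoid genes rose from Lin- BM cells to 1 month. Lrat, Rdh7 and Rdh16 were not well above background on either Lin- array and passed the filter through the 1-month arrays alone. Any of the 13 that was well above background on only 1 Lin- array passed the same way. On a Lin- array 8 to 9 of the 17 genes with a probe were well above background. The count of 13 is thus no support for a rise of the list. Of all genes 28.8% were called higher and 26.5% lower. Rbp4, the plasma carrier of retinol, rose by 14.45, and the retinol dehydrogenases Rdh7 and Rdh16 by at least 9010-fold and 210-fold. Of the partners in ethanol oxidation 4 of 5 were higher, among them Cyp2e1 (at least 5634-fold) and catalase, Cat (5.57). The mitochondrial acetyl-CoA synthetase Acss1, which uses acetate, was lower, at least 619-fold, so the genes of this list split. The folate genes around Aldh1l1 split as well, with 6 of 14 higher and 5 lower. Ftcd (at least 1933-fold) and Gnmt (11.72), enzymes that consume one-carbon units in liver, were higher, and Mthfd1l (-6.90), a mitochondrial enzyme that supplies formate, was lower. Of the other alcohol dehydrogenases 1 was tested, and Adhfe1 was higher, at least 8.77-fold.

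**Figure D4:**
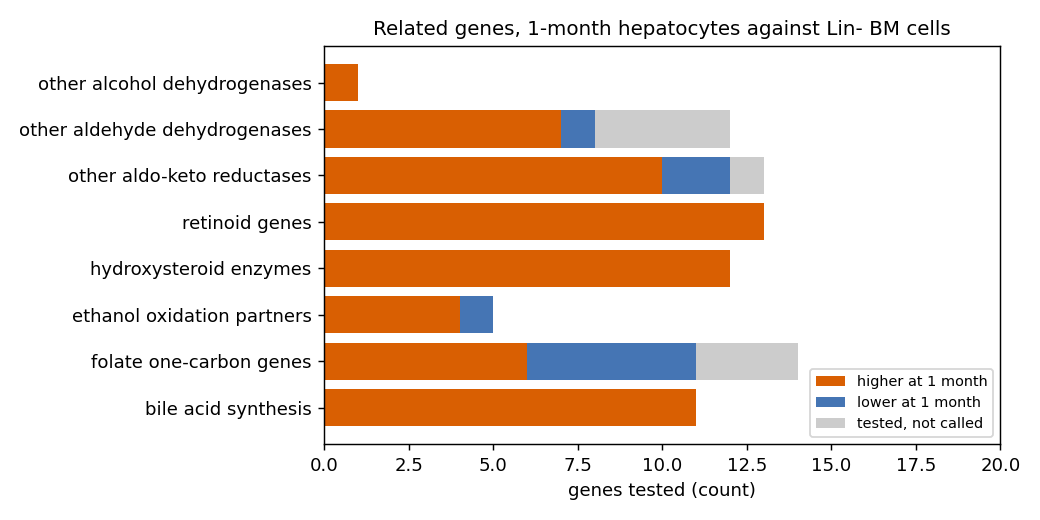
Number of genes tested (x axis) of 8 related lists (y axis) in 1-month hepatocytes against Lin- BM cells, split into called higher, called lower and not called. Lower genes occur among the aldehyde dehydrogenases (1), the aldo-keto reductases (2), the ethanol oxidation partners (1) and the folate genes (5). Genes that passed the filter through a single group are included.

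The genes most like a member over the 8 arrays, by Pearson's r on the shared-probe scale among 9225 genes, were Mrm2 (0.985), Actr1b (0.983) and Skiv2l (0.980) for Aldh1b1 and Ext1 (0.998), Slc25a39 (0.996) and Gm5523 (0.994) for Aldh2. For Akr1c6 they were Rgn, Gchfr and F13b, each at 1.00. These 8 points hold 2 distant clusters, Lin- BM cells and hepatocytes, so that a high r needs no likeness within them.

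Sequences before the transcription start were compared among the 9 members with a matched entry in the promoter table used here (RefSeq, GRCm38.p6). Motifs were searched on both strands in the 250 bases before each start and set against 32851 promoters. Adh5 and Aldh1a1 have a first and a second start and counted if either window matched, while the background counts single promoters. The shares are thus not strictly alike. The TATA box of Adh5 and the C/EBP motif of Aldh1a1 lie before their first starts. A TATA box (TATAAA) was in 3 of 9 members and 12.4% of all promoters, a CCAAT box (CCAAT) in 5 and 33.8%, the C/EBP motif (TTGCNNAA) in 3 and 9.56%, and a GC box (GGGCGG) in 3 and 32.7%. The GTTAAT arm of the HNF1 motif was in 1 and 6.43%, and the HNF4 site in 0 and 0.384%. The HNF4 letters searched were CAAAGTCCA. No match overlapped another, and a match is a description of the letters only.

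The promoters of Aldh1a1 (its second start) and Aldh1a7 are shown because these neighbouring paralogs are the members most alike in this window. Capitals mark the CCAAT box and, in Aldh1a7 only, the TATA box and the HNF1 arm.
Aldh1a1, chr19:20601718-20601967, plus strand: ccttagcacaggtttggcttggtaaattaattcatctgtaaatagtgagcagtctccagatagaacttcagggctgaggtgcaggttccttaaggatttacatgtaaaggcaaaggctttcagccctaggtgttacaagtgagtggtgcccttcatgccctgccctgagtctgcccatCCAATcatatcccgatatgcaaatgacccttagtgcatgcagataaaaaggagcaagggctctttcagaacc
Aldh1a7, chr19:20727557-20727806, minus strand: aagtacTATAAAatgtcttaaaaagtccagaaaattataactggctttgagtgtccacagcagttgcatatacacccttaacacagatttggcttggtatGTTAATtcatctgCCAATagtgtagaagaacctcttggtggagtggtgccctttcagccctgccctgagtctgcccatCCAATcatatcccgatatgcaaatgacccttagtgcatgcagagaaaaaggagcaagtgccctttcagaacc
The last 100 bases before these starts agree at 94 positions, with a longest identical run of 65 bases, and no other pair of member promoters agreed at more than 33 of 100. The arrays do not tell which Aldh1a1 start was used.

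Akr1c6 and Adh5 are set side by side because they had the largest and the smallest called rise from Lin- BM cells to 1 month. Capitals mark a TATA box and, on the other strand, a CCAAT box in Akr1c6, and 3 GC boxes on the other strand in Adh5.
Akr1c6, chr13:4434093-4434342, plus strand: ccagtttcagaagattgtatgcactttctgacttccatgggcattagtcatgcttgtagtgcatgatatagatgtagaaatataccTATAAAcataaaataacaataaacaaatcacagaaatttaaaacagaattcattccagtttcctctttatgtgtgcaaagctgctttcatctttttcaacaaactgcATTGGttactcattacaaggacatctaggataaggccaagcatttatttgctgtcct
Adh5, second start, chr3:138442843-138443092, plus strand: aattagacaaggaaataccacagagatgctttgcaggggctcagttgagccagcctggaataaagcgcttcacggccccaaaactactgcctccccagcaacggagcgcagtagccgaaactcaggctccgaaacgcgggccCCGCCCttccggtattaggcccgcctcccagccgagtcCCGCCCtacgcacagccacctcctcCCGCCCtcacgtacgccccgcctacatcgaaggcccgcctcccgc
The Akr1c6 window holds 0 CpG and 34.0% GC, and the Adh5 window 21 CpG and 63.6% GC, against medians of 6 CpG and 52.4% GC over all promoters. The first start of Adh5 has 2 CpG.

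For Aldh1b1, whose level separated the 1-month arrays from the other hepatocytes most, the window holds 4 CpG and 53.2% GC, with 1 GC box in capitals.
Aldh1b1, chr4:45798772-45799021, plus strand: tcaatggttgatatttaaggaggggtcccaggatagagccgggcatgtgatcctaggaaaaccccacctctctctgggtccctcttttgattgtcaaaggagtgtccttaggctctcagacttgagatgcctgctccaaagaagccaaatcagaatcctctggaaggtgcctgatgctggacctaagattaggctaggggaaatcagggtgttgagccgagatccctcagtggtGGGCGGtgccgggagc
No promoter entry was matched for Aldh2.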

How the data were processed

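RNA of 8 samples (4 groups of 2, pooled cells of 3 mice each) was labelled with Cy3 and hybridised to Agilent arrays of 2 designs. The authors extracted each array with Feature Extraction 11.5.1.1, and the deposited intensities used here are its background-subtracted signals. The deposited tables of log2 values, which the authors had normalized to the 75th percentile, served as an alternative. Probe coordinates (mm9) are those in the deposited files.

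Control spots and outlier spots were left out, signals were taken to log2, and the 75th percentile of each array was subtracted. A probe entered a fit where the 2 arrays of some group both measured it well above background, and the probe with the highest mean stood for its gene. Probes were named through accessions or symbols of RefSeq (GRCm38.p6), and the array's name was kept otherwise. Groups were compared with limma 3.58.1 (R 4.3.3) and Benjamini-Hochberg adjustment over all genes tested. Comparisons within a slide used all probes of its 4 arrays, and those across slides used shared probes and all 8 arrays. Slide as a block could be fitted in no comparison across slides, since each group lies on 1 slide. Where neither array of a group measured a probe well above background, the fold is a bound: the brighter group's mean against, per array, the higher of the probe's own signal and the lowest signal among probes well above background. The number of arrays limits the precision. The fits were tested on simulated data. Sequences, tables and figures were handled with Python 3.11.15, pandas 2.3.3, numpy 2.4.6, biopython 1.88 and matplotlib 3.10.9.

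The members and gene lists were chosen with earlier results of these data known. Named were all members, up to 3 called genes with the largest change of each related list, the 3 most correlated genes of 3 members, and single markers or related genes as examples, the last chosen after their values were seen. Tried besides were background correction by normexp (offset 50), quantile scaling, another set of probes for the percentile, other filters, other handling of several probes, the processed values, the methods' t-test, shared probes within a slide and leaving out each array.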

Additional observations from a re-analysis of the deposited data

Results flagged for a closer look

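Aldh1b1 and Aldh2 differed between the times after transplantation. Aldh1b1 was higher at 5 months than at 1 month by 3.59 and Aldh2 by 2.02 on the log2 scale, on both 5-month arrays against both 1-month arrays, by limma over all 8 arrays. Slide and time cannot be told apart in these values.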

How the results depend on the processing

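No paired analysis was possible because the groups compared share fewer than 2 replicate numbers. The calls of Aldh1b1 and Aldh2 below primary hepatocytes at 1 month held under every setting run except the Benjamini-Hochberg adjusted methods' t-test, which called 0 members there and left 0 genes higher and 2 lower of all genes, against 1077 and 473. The same adjusted t-test called 0 members higher and 4 and 10 genes higher and lower from 1 to 5 months (539 and 1046 in limma), 4 members higher and 1267 and 1238 genes in primary hepatocytes against Lin- BM cells, 1662 and 1658 genes at 5 months against Lin- BM cells, 2830 and 1741 at 1 month against Lin- BM cells, and 0 and 0 at 5 months against primary hepatocytes. The members it lost were Aldh1a1, Aldh1a7 and Aldh2 at 1 month, Aldh1a1 and Aldh1a7 at 5 months and Aldh1a1, Aldh1a7 and Aldh1b1 in primary hepatocytes, each against Lin- BM cells, and Aldh1a7 was lost in all 3 without adjustment too. Unadjusted, it called 747 genes higher and 616 lower at 5 months against primary hepatocytes (73 and 37 in limma), and from 1 to 5 months 810 higher and 1 member lower, Adh4.

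With no filter on dim probes 19017 genes were higher at 1 month than in Lin- BM cells (8228 with the filter), 24 higher and 14 lower at 5 months than in primary hepatocytes, and 3427 higher at 1 month than in primary hepatocytes. With probes well above background on every array these counts were 4834 lower (7549), 28 and 19, and 575 higher, and 2318 were lower in primary hepatocytes than in Lin- BM cells (3514). Shared probes gave 2844 higher and 2940 lower at 1 month against Lin- BM cells. At 1 month against primary hepatocytes normexp gave 1866 higher, quantile scaling 680 higher, another percentile set 750 lower and the processed values 755 lower. From 1 to 5 months normexp gave 1998 lower and 1 member lower, Adh4, the other percentile set 831 higher and the processed values 835 higher. Normexp moved the median log2 change of all genes at 1 month against Lin- BM cells from 0.07 to 0.36.

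Values near 0 that missed the threshold changed sign. Akr1c6 at 5 months against primary hepatocytes was -0.00504 with normexp, -0.15 with quantile scaling and -0.00119 with the processed values. Leaving out 1 array in the same comparison gave -0.12 to 0.13 for Akr1c6, -0.49 to 0.22 for Adh4, -0.31 to 0.12 for Adh5, -0.16 to 0.28 for Aldh1a7 and -0.13 to 0.0272 for Aldh1l1. At 1 month against primary hepatocytes Adh1 was -0.0850 with normexp, -0.21 with the other percentile set, -0.22 with the processed values and -0.0175 to 0.13 with 1 array left out, and Aldh1a1 was 0.0950 with quantile scaling and -0.23 to 0.19 with 1 array left out. From 1 to 5 months Aldh1a1 was -0.0434 with quantile scaling and -0.0804 to 0.34 with 1 array left out, and Aldh1a7 was 0.00965 and 0.0160 with the other percentile set and the processed values.

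With each array left out in turn, the genes called higher and lower numbered 4813 to 6353 and 5003 to 6237 at 1 month against Lin- BM cells, 0 to 1101 and 0 to 600 at 5 months against primary hepatocytes, 394 to 1212 and 161 to 547 at 1 month against primary hepatocytes, and 75 to 609 and 253 to 1100 from 1 to 5 months. Members called lower at 5 months against primary hepatocytes numbered 0 to 1, and members called higher from 1 to 5 months 1 to 2. A lone array left in a group was assumed to vary like the other groups. The causes of these differences were not tested. With 2 arrays a group, intervals of single genes stay wide, and values close to the background are less certain.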
